A study of Homo sapiens with 2 samples.

Results

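The noncoding RNAs described here are 10 listed genes of human 293T cells, measured among RNAs recovered by immunoprecipitation. They comprise the small nucleolar RNA (snoRNA) host genes GAS5, SNHG1, SNHG5, SNHG7 and SNHG12, the nuclear-retained RNAs MALAT1, NEAT1 and MEG3, and TUG1 and H19. Members were chosen by name, and a probe set counted for a member when the platform annotation gave it exactly 1 symbol, updated through the Entrez identifier. By that rule 4 of the 10 genes had a value (GAS5, TUG1, MALAT1 and MEG3), out of 19775 genes on the array. The other 6 lie on probe sets that the annotation shares between the long RNA and the snoRNAs or the microRNA made from the same locus. The annotation does not credit those shared probe sets to the long RNA alone, so they are described separately and enter none of the gene counts. Which RNA of the locus they read was not tested, and the annotation does not show that they read the small RNAs.

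Both arrays came from 293T cells, a human embryonic kidney line that carries the SV40 large T antigen. The control array held RNA from cells given a scrambled oligonucleotide, and the miR-941 array held RNA from cells given synthetic miR-941, each at 30 nmol/l. The miR-941 precipitate used an Ago2 antibody; Ago2 is an Argonaute protein, which carries microRNAs. For the control the title says Ago2 and the antibody entry says nonimmune IgG beads, so if the entry is right the effects of oligonucleotide and antibody cannot be told apart. The design asks which RNAs come down with Ago2 when miR-941 is in excess. There was 1 array per group, so no difference below has a replicate check and none was tested. No input RNA array was analysed here, so recovery by Ago2 and RNA amount in the cells cannot be told apart.

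SnoRNA host genes are transcribed and spliced like mRNAs, and the snoRNAs are cut out of their introns to guide modification of ribosomal RNA. The spliced host RNA is exported, and several host RNAs are engaged by ribosomes and destroyed by nonsense-mediated decay. MALAT1 stays in nuclear speckles, NEAT1 is the scaffold of paraspeckles, and MEG3 is an imprinted RNA bound to chromatin. TUG1 is found in the nucleus and the cytoplasm, and H19 is an imprinted, largely cytoplasmic RNA that is also the precursor of miR-675. Ago2 acts mostly in the cytoplasm. RefSeq lists 9 of the 10 as long noncoding RNAs and TUG1 as protein-coding.

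The microRNA added is shown first, because its seed is what Ago2 uses to choose targets. RefSeq (GRCh38.p14) places the same mature sequence at 5 loci on the plus strand of chromosome 20, the first at chr20:63919495-63919517. Capitals mark the seed, bases 2 to 8.
miR-941: cACCCGGCugugugcacaugugc

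The starts of the host RNAs are shown because most of them have a feature that the choice of members did not use. Many snoRNA hosts are known to begin with a C followed by a run of C and T, the start that marks mRNAs of the translation machinery. Each line gives 10 bases before and 50 bases from the RefSeq start (GRCh38.p14). Capitals mark the unbroken run of C and T at the first transcribed base or, where no run of 3 or more begins there, the longest such run in the 50 bases. The windows are chr1:173868996-173869055 (GAS5), chr11:62855836-62855895 (SNHG1), chr6:85678684-85678743 (SNHG5), chr9:136728135-136728194 (SNHG7), chr1:28581824-28581883 (SNHG12) and chr11:2001217-2001276 (H19), all on the minus strand, and chr11:65497728-65497787 (MALAT1) on the plus strand.
GAS5: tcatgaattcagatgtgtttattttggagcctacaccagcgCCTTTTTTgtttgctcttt
SNHG1: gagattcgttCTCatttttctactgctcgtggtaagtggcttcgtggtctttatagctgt
SNHG5: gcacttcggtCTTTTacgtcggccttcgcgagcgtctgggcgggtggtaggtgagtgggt
SNHG7: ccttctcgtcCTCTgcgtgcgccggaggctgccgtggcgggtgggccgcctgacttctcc
SNHG12: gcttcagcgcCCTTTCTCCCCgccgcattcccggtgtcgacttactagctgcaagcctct
MALAT1: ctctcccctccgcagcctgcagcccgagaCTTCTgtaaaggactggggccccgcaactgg
H19: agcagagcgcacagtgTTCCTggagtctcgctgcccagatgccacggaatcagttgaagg

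A first base C within a run of at least 3 C or T bases opened 4 of the 5 host RNAs, with runs of 3 (SNHG1), 5 (SNHG5), 4 (SNHG7) and 11 bases (SNHG12). The RefSeq start of GAS5 is an A, and its longest run, 8 bases, begins at base 32. Only this 1 annotated start was examined for GAS5. Whether GAS5 RNA in these cells begins at another base, within a run of C and T, was not tested. None of the 7 start windows listed for MALAT1, MEG3, TUG1 and H19 opened with a C in a run of at least 3 such bases. Over all 35116 RefSeq start windows the share was 7.50%. It was 59.4% of 32 windows of protein-coding snoRNA hosts and 22.7% of 22 windows of the other noncoding hosts. The match describes the annotated start and says nothing about how an RNA was recovered here.

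None of the 4 genes with a value differed by 2-fold or more between the arrays, where 0.517% of 13150 detected genes did. Detected means that the mean of both arrays was above 0.92, the median of all probe sets. At 1.5-fold GAS5 alone was past the size, 1 of 4 members against 5.82% of detected genes. The members went in different directions: GAS5, MALAT1 and MEG3 were higher on the miR-941 array on their brightest probe set and TUG1 was lower. Over all detected genes 46.3% were higher and 42.4% lower (median log2 difference 0.00). Detected probe sets of the same gene differed from each other with a within-gene SD of 0.29 (log2, 6106 genes, all levels pooled). It compares the 2 brightest probe sets of a gene on the same 2 arrays. It therefore holds no spread between precipitations or hybridisations. Of the 4 genes GAS5, MALAT1 and TUG1 had differences larger than it. Among detected genes of like level the SD of the difference was 0.40 for GAS5, 0.39 for MALAT1 and 0.22 for TUG1. For MALAT1 14.8% of such genes had a difference as high.

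TUG1 was lower on the miR-941 array on every probe set that detected it. Its log2 levels on the control and miR-941 arrays were 8.64 and 8.13 on 222244_s_at, and 7.97 and 7.49 on 212725_s_at. They were 7.17 and 6.60 on 212337_at, and 6.09 and 5.46 on 228397_at. All 4 miR-941 values thus lay below their control values, and the log2 differences were -0.51, -0.48, -0.57 and -0.63. In linear terms the miR-941 array read between 64.7% and 71.7% of the control. The remaining 2 TUG1 probe sets, 230635_at and 229301_at, were below the detection level on both arrays.

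The TUG1 difference was set beside those of other genes with many probe sets. Its median log2 difference was -0.54 ± 0.066 (SD over 4 probe sets, which share 1 hybridisation per array and are not replicates). Of the 975 genes that at least 4 probe sets detected, 66 (6.77%) were lower on each of those, and the median SD over these genes was 0.27. An SD as small as that of TUG1 was found in 1.85% of them, so such evenness was not particular to it. A median as low was found in 4 of them, TUG1 included; DST, a cytoskeletal linker gene, was another, with probe sets from -1.32 to -0.55. Among 498 detected genes within 0.5 of TUG1 in level, 11 (2.21%, TUG1 included) had a difference as low on the brightest probe set.

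**Figure D1:**
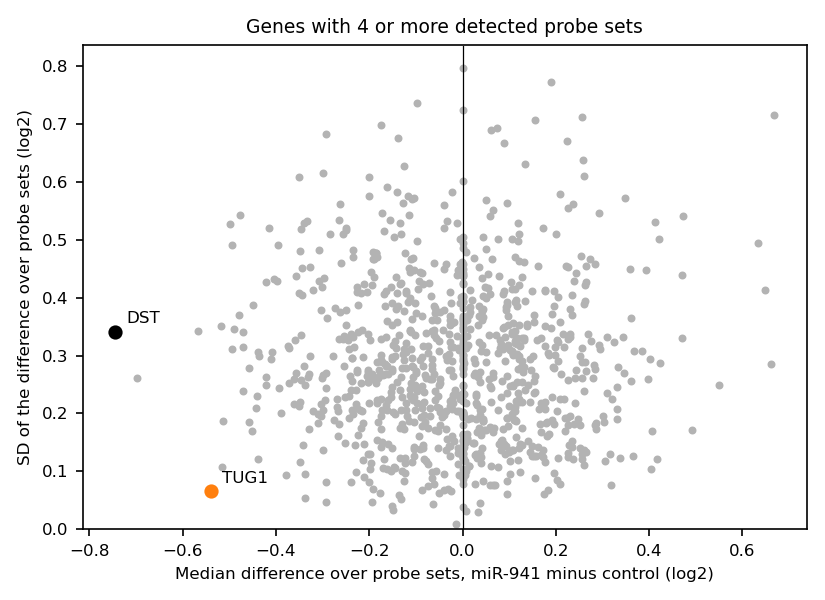
Each point is 1 of the 975 genes with 4 or more detected probe sets; the x axis gives the median log2 difference (miR-941 minus control) over its probe sets and the y axis the SD of that difference. TUG1 (orange) sits at -0.54 with an SD of 0.066, near the lower left edge, while DST (black) sits further left at -0.74 with an SD of 0.34.

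On the same arrays the actin control probe sets had log2 differences of -0.66 (5'), -0.37 (middle) and -0.04 (3'), and those for GAPDH had -0.19, -0.07 and 0.05. Where the TUG1 probe sets lie along the RNA is not given in the sources used here. The part of RNA integrity in the TUG1 difference was not tested.

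The GAS5 difference was larger on its own probe set than on the shared ones. The only probe set annotated to GAS5 alone, 1560402_at, read 1.89 in the control and 2.63 with miR-941, a log2 difference of 0.75. It was dim, and 3.74% of 1549 detected genes of like level had a difference as high. The annotation gives 4 further probe sets to GAS5 together with 8 snoRNAs of its introns. They read 9.06 and 9.19 (224741_x_at), 9.09 and 9.16 (224841_x_at), 7.81 and 7.88 (227517_s_at), and 7.23 and 7.11 (228238_at). Their log2 differences were 0.14, 0.07, 0.07 and -0.12, with 3 higher and 1 lower. These 4 bright probe sets therefore lay within 0.14 of no difference, and the 0.75 was seen on the dim one alone.

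**Figure D2:**
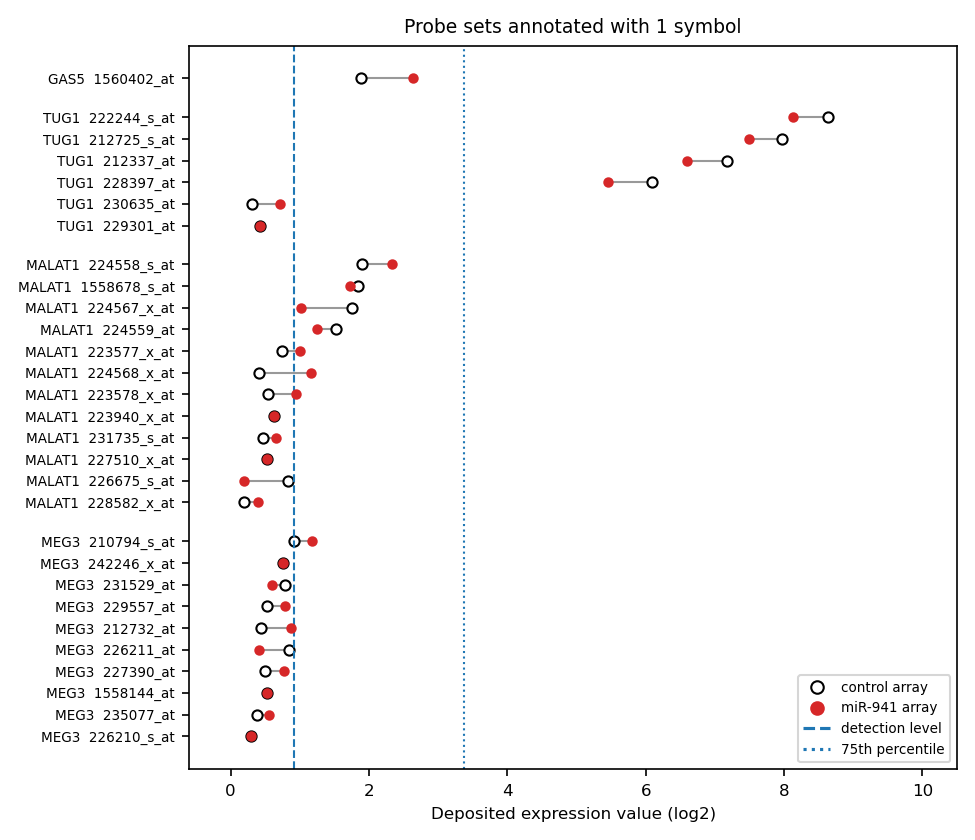
Log2 values of the 29 probe sets annotated to 1 member alone, control array (open circles) and miR-941 array (red), with the detection level of 0.92 (dashed) and the 75th percentile of 3.37 (dotted). The 4 bright TUG1 probe sets are shifted left on the miR-941 array by 0.48 to 0.63, while all probe sets of GAS5, MALAT1 and MEG3 lie below the 75th percentile.

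The remaining host loci are measured by shared probe sets alone, and these differed little where they were bright. The probe set given to SNHG1 and 8 snoRNAs, 224610_at, read 8.32 in the control and 8.26 with miR-941 (log2 difference -0.05). That given to SNHG5, SNORD50A and SNORD50B, 225155_at, read 9.72 and 9.89 (0.17). SNHG5 is the host of the U50 snoRNAs, and its shared probe set had the largest positive difference among the bright ones.

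For SNHG7, shared with SNORA17A and SNORA17B, the brighter 229050_s_at read 5.97 and 5.81 (log2 difference -0.16). The dim 1552729_at read 1.30 and 1.98 (0.68), so the 2 probe sets of that locus differed in opposite directions. The 3 probe sets given to SNHG12 with SNORA16A, SNORA44 and SNORA61 were all lower on the miR-941 array. They read 5.84 and 5.62 (223773_s_at), 4.90 and 4.81 (223774_at), and 4.58 and 4.37 (228990_at), with log2 differences of -0.22, -0.08 and -0.21. Each of these is smaller than the within-gene SD of 0.29, but that SD pools dim and bright probe sets.

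Across the 5 host loci, all 11 shared probe sets were detected, 5 higher and 6 lower (median log2 difference -0.05). Of the 16 detected shared probe sets of all members 1, the dim SNHG7 one, was past 1.5-fold, where 7.77% of 27252 detected probe sets were. Among the 10 detected probe sets annotated to 1 member alone, 3 were past that size. They were the GAS5 one (0.75), 224567_x_at of MALAT1 (-0.73) and 228397_at of TUG1 (-0.63). Both kinds together gave 4 of 26 (15.4%).

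**Figure D3:**
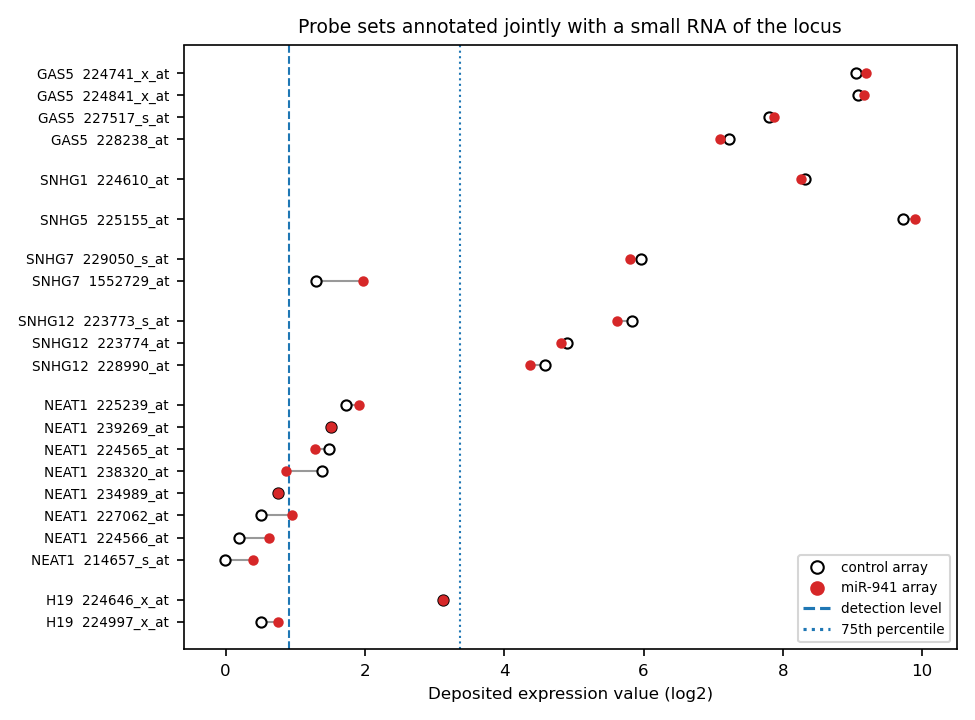
Log2 values of the 21 probe sets that the annotation shares between a member and small RNAs of its locus, control array (open circles) and miR-941 array (red), with the detection level of 0.92 (dashed) and the 75th percentile of 3.37 (dotted). Of the 11 host probe sets 10 lie above the 75th percentile with nearly overlapping circles, and all 8 NEAT1 probe sets lie below it.

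The nuclear-retained RNAs read near the floor of both arrays. MALAT1 had 12 probe sets of its own, 4 above the detection level and none above the 75th percentile of 3.37. The detected ones read 1.90 in the control and 2.34 with miR-941 (224558_s_at), 1.84 and 1.72 (1558678_s_at), 1.75 and 1.02 (224567_x_at), and 1.52 and 1.25 (224559_at). Only the brightest was higher on the miR-941 array (log2 difference 0.44). The other 3 were lower (-0.12, -0.73 and -0.27), which puts the MALAT1 median at -0.19, so its direction depends on the probe set taken. Of the 12 probe sets 11 carry the suffix _x_at or _s_at, which marks probes that may match more than 1 transcript.

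MEG3 had 10 probe sets, of which 210794_s_at alone was detected, at 0.91 in the control and 1.18 with miR-941 (log2 difference 0.26). The other 9 were below the detection level, with 4 higher, 2 lower and 3 equal. NEAT1 had 8 probe sets shared with MIR612, 4 of them detected and none above the 75th percentile. The detected ones read 1.74 and 1.92 (225239_at), 1.52 on both arrays (239269_at), 1.48 and 1.29 (224565_at), and 1.39 and 0.87 (238320_at), so 1 was higher, 2 were lower and 1 was equal. A further probe set given to NEAT1, 220983_s_at, was left out, because its accession belongs to SPRY4 in RefSeq.

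Together 9 of the 30 probe sets of the nuclear-retained RNAs were detected and 0 lay above the 75th percentile, a level that 25.0% of all probe sets passed. All 12 probe sets of the host loci were detected and 10 lay above it. Brightness differs between probe sets at the same RNA amount, so these counts compare probe sets on the array and not molecules. The differences of MALAT1, NEAT1 and MEG3 rest on readings close to the floor, and so do the largest differences among the host loci, the 0.75 of GAS5 and the 0.68 on the dim SNHG7 probe set.

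The values of the nuclear-retained RNAs were also coarse. For 26 of the 30 probe sets the pair of values, to 6 decimals, was the same as in at least 1 other probe set of the table, against 1 of 12 for the host loci. The 0.44 of MALAT1 is a size of difference that 965 other probe sets hold, and the 0.26 of MEG3 one that 520 others hold. H19 was alike: 224646_x_at, shared with MIR675, read 3.13 on both arrays, and 224997_x_at read 0.50 and 0.76, below the detection level. The 1 detected probe set of the H19 locus thus showed no difference.

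**Figure D4:**
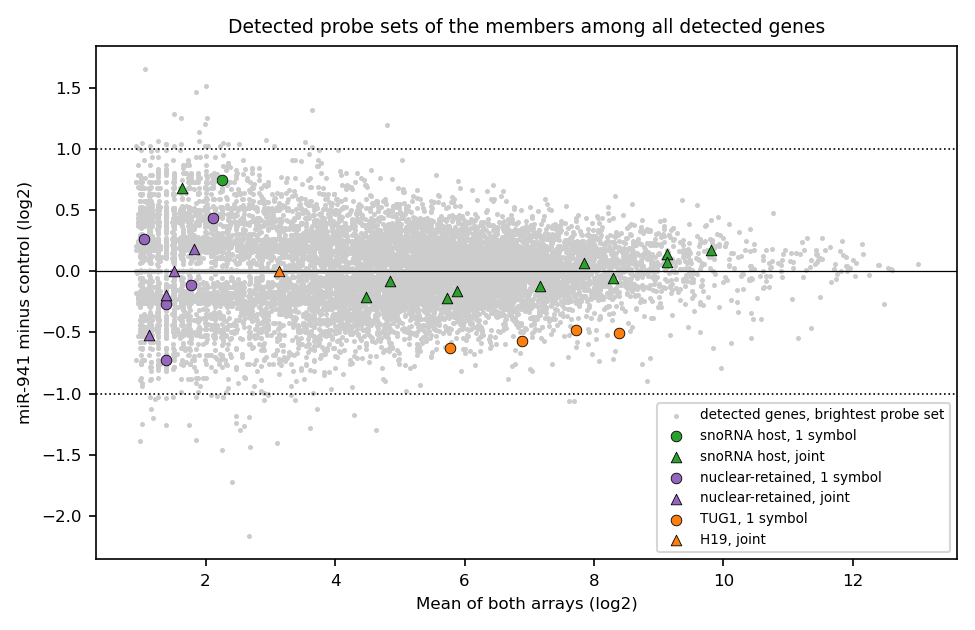
Log2 difference (miR-941 minus control) against the mean of both arrays for 13150 detected genes (grey, brightest probe set) and for the 26 detected probe sets of the members; circles are annotated to 1 gene and triangles are shared with small RNAs, and dotted lines mark 2-fold. The 4 TUG1 points lie at the lower edge of the genes of their level, the bright host points lie within 0.22 of 0, and the nuclear-retained points lie at levels under 2.2 on both sides of 0.

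Host genes against nuclear-retained RNAs could be compared by the rule on 3 genes. The host median was the 0.75 of GAS5 alone, and the nuclear-retained median over MALAT1 and MEG3 was 0.35, a gap of 0.40 on the log2 scale. With the shared probe sets taken in by locus, an alternative added after seeing the data, the host median over 5 loci was -0.05 and the nuclear-retained median over 3 was 0.26, a gap of -0.32. The sign of the gap thus changed with the probe sets used, and no difference in behaviour between these classes is shown.

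Other noncoding snoRNA hosts gave no common direction. Of 25 listed, 11 had a probe set of their own and 7 were detected: 4 higher, 1 lower and 2 equal (median log2 difference 0.01). SNHG19 read 4.72 in the control and 5.37 with miR-941 (0.65, on 1 _x_at probe set), and EPB41L4A-AS1 read 7.05 and 7.56 (0.51). ZFAS1, a host of snoRNAs transcribed opposite ZNFX1, had 3 of 4 detected probe sets higher and 1 equal (median 0.24). SNHG17 had -0.05 on its brighter probe set and 0.14 on the other, and SNHG32 and DLEU2 had the same value on both arrays. The counts and medians for this list include DLEU2, although the annotation of its shared probe sets names the microRNA gene MIR15A and no snoRNA. The smallest of the 4 positive differences was 0.01 (DANCR). Of 19 detected probe sets that these hosts share with other genes, 7 were higher and 12 lower (median -0.21, from -0.99 to 0.69). They include those of SNHG4, which are shared with the mRNA of the nuclear matrix protein MATR3 and all read lower, from -0.99 to -0.24. Of the 12 shared with small RNAs alone, 7 were higher and 5 lower (median 0.07, from -0.31 to 0.69). Of 34 protein-coding hosts, 14 had a probe set of their own, 16 lay on shared probe sets alone and 4 on neither. Of the 14, 13 were detected, 6 higher, 6 lower and 1 equal (median 0.00), from PRRC2A (-0.20) and EIF4G2 (-0.09, with its other probe set at 0.47) to EEF2 (0.04, with its other at -0.05) and RPL27A (0.30). Of 55 detected probe sets that protein-coding hosts share with other genes, 33 were higher, 21 lower and 1 equal (median 0.03).

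The other nuclear long noncoding RNAs listed were lower in 5 of 6 detected cases, with a median log2 difference of -0.39. Over all detected genes 42.4% were lower. JPX, an RNA of the X inactivation centre, read 4.15 in the control and 3.16 with miR-941 (-0.996). HOXA11-AS read 3.98 and 3.43 (-0.55, with its other detected probe set at 0.23). FTX had -0.55, and JPX and FTX rest on 1 detected probe set each. HOTAIR had 0.21, KCNQ1OT1 -0.23 and MIAT -0.24, all on readings of about 2 or less. The 1 detected shared probe set of this list, given to PVT1 and a microRNA, had -0.44. XIST is not on the list, and its 6 detected probe sets were all lower, from -0.44 to -0.20. Of 7 detected RNAs listed here as cytoplasmic or mixed, 2 were higher, 3 lower and 2 equal (median 0.00). The equal ones were dim, TINCR at 1.39 and FIRRE at 1.12 on both arrays. Where each RNA lies in the cell was taken from the list and not measured here. The placing of FIRRE with the cytoplasmic or mixed RNAs is doubtful, and the counts above include it. OIP5-AS1, a cytoplasmic RNA that binds microRNAs, read 7.59 and 7.21 (-0.39), with 2 of 3 probe sets lower and 1 equal, and DLEU1 had -0.38. CRNDE had 0.27 (its other probe set -0.06) and LINC00467 0.11. The 1 detected shared probe set of that list, given to CYTOR and another gene, had 0.20. No member of these lists was past 2-fold.

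On their brightest probe sets, the mRNAs of the proteins that work with these RNAs gave small differences in both directions. Of 6 detected snoRNA-protein particle genes, 2 were higher and 4 lower (median log2 difference -0.17), with the pseudouridylation cofactors NHP2 at 0.19 and GAR1 at -0.26, the methylation core protein NOP58 at -0.20 and the methylase FBL at 0.05. Of 8 detected nonsense-mediated decay genes, 4 were higher, 3 lower and 1 equal (median 0.07), from SMG6 (0.32, on a reading near the detection level) and SMG8 (0.28) to RBM8A (-0.03, with its 5 probe sets from -0.44 to 0.42) and EIF4A3 (-0.08). Of 12 detected paraspeckle and speckle genes 6 were higher and 6 lower (median -0.02). SFPQ and NONO, paired RNA-binding proteins that build paraspeckles on NEAT1, had the lowest values: SFPQ read 11.58 in the control and 11.11 with miR-941 (-0.47, with 4 of 5 probe sets lower and 1 equal), and NONO read 10.78 and 10.39 (-0.39, with 3 of 3 lower). RBM14 and NUDT21 had 0.20 each. PSPC1 read 9.14 in the control and 8.85 with miR-941 (-0.29), but its 5 detected probe sets ran from -1.010 to 1.198. The lowest and the highest of these PSPC1 probe sets were each past 2-fold, in opposite directions. None of the 3 imprinted neighbours of H19 and MEG3 with a probe set of their own (DLK1, DIO3 and INS) was detected.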

How the data were processed

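RNA was hybridised to 2 U133 Plus 2.0 GeneChips (Affymetrix). The table deposited by the authors gives each probe set an RMA value, per the submitters' processing notes, which was taken here as log2; those notes also name affy and MAS5, with no versions or roles. Scale and centring are not stated: array medians were 0.92 (control) and 0.98 (miR-941). Maxima of 13.6 and 13.7 exceed 11.1, the natural log of a 16-bit reading.

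Of 54675 probe sets, 41091 had 1 symbol in the platform annotation, 1801 several, 11721 none and 62 were controls; 41037 matched RefSeq (GRCh38.p14) by Entrez identifier. A gene was read on its brightest probe set and detected when the mean of both arrays was above 0.92 (13150 of 19775 genes). The difference is miR-941 minus control. With 1 array per group no test was run, and the number of arrays limits the precision. Groups follow the transfected oligonucleotide. All 10 members were to be named, and of each list the 2 highest and 2 lowest detected genes and any past 2-fold. DST, ZFAS1, DANCR, PSPC1, FTX, MIAT, TINCR, FIRRE, XIST and the shared probe sets were singled out after their values were seen. The members and lists were chosen with earlier results of these data known. Scripts (Python 3.11.15, pandas 2.3.3, statsmodels 0.14.6) were tested on simulated data. The alternatives were other ways to combine probe sets, to set the detection level and to scale.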

Additional observations from a re-analysis of the deposited data

How the results depend on the processing

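No member was past 2-fold under any setting tried; at 1.5-fold 1 member (GAS5) was past the size, and at 4-fold 0. The median log2 difference over the members was 0.35, and it was 0.0474 with the mean and 0.0356 with the median over detected probe sets, -0.27 when those ending in _x_at or _s_at were dropped, and -0.51 with detection raised to the 75th percentile, where TUG1 alone is left. The nuclear-retained median of 0.35 was 0.0474, 0.0356 and -0.27 under the first 3 of these settings. The gap between host and nuclear-retained medians, 0.40, was 0.70, 0.71 and 1.01, and -0.32 with shared probe sets taken in. The host median of 0.75 was -0.0538 with those probe sets, and GAS5 itself 0.14. Above the 75th percentile no host and no nuclear-retained RNA had a value. Removing a loess trend (span 0.3), setting low values to the detection level, dropping the filter and changing the nuclear-retained group moved none of these by as much as the within-gene SD of 0.29. Dropping the filter could not move them, because each member keeps the same brightest probe set. The group of MALAT1 and NEAT1 held MALAT1 alone, because NEAT1 has no probe set of its own. MALAT1 went from 0.44 to -0.17, -0.19 and -0.27 under the first 3 settings; TUG1 was lower under every setting that gave it a value. Over all detected genes, 30 were higher and 38 lower by 2-fold: 24 and 18 with the mean or the median over probe sets, which turns the balance, 4 and 7 above the 75th percentile, 387 and 378 at 1.5-fold, 0 and 1 at 4-fold, and 20 and 45 after the loess trend was removed. No paired analysis was possible because a single array in each group leaves no pairs of replicates, and no array could be left out. Dim probe sets limit what can be read for MALAT1, MEG3, NEAT1 and H19.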

Other observations

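The repeated values seen in the nuclear-retained RNAs are a property of dim probe sets in the whole table. Of 27361 probe sets at or below the detection level, 93.7% had a size of difference that more than 100 probe sets of the table hold, and 30.4% had the same value on both arrays. Above the 75th percentile these shares were 11.9% and 6.32% of 13645 probe sets. The TUG1 probe set 228397_at, although bright, had a difference of -0.63 whose size 318 other probe sets hold, while the other 3 detected TUG1 probe sets had sizes found nowhere else in the table.

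The label of the cells was set against marker genes. Of 9 markers listed for the line from which 293T derives, 7 were detected, and KRT8 and LHX1 were below the detection level. Among the 7 were VIM (8.82 in the control and 8.70 with miR-941) and NEFL (6.99 and 7.37). PAX2, also among them, was close to the detection level (0.86 and 1.23). Of 10 markers of other cell types with a probe set of their own, 4 were detected, APOA1, COL1A1, PECAM1 and GFAP, with the highest reading 2.72 (COL1A1, control array). PTPRC, CD3E, ALB, CDH5, MYH6 and INS were below the detection level. Over the whole array 13150 of 19775 genes were detected, so a count of detected markers says little about the label.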
